A study of Mus musculus with 18 samples.

Results

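The collagen gene family comprised every gene of the count table whose symbol has the form *Col*, a type number, *a* and a chain number. The rule selected 44 of 47729 genes, namely 11 fibrillar, 6 basement membrane, 6 beaded filament, 9 FACIT (fibril-associated collagens with interrupted triple helices), 3 network, 4 transmembrane and 2 multiplexin collagens, 1 anchoring fibril collagen and 2 others. Each gene encodes an alpha chain, and chains wind into a triple helix. Fibrillar collagens form the load-bearing fibers of the submucosa and lamina propria and come mainly from fibroblasts and smooth muscle cells. Type IV chains form the sheet under epithelium and around vessels and muscle, type VI chains form microfibrils that tie this sheet to the stroma, and FACIT chains coat the fibrils.

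Colon RNA was sequenced from 9 mice, with 3 in each group, and the study's methods give C57BL/6 as the strain and littermates as the controls of transgenic animals. The treatment text of the naive samples also lists AOM and DSS, and they were grouped by their treatment label, which reads control. Naive WT mice (1, 2 and 3) carried no transgene. WT CAC mice (4, 5 and 6) received azoxymethane (AOM, 10 mg/kg), a carcinogen, and 3 cycles of dextran sulfate sodium (DSS, 2.5%), which injures the mucosa, a model of cancer that arises in colitis (CAC). The remaining group (7, 8 and 9), *Cldn2*TG CAC, received the same agents and overexpresses claudin-2, a tight junction protein, from the villin promoter, which is active in intestinal epithelium and not in the stroma. No untreated *Cldn2*TG group was part of this comparison, so the effect of the transgene without AOM/DSS was not measured here, and tumor and non-tumor tissue were not separated by the labels.

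Each mouse had 14142711 to 22262546 counted reads. The 2 lanes of a library agreed within counting noise (chi-square per degree of freedom 0.995 to 1.06, beside 16.8 to 66.3 for pairs of mice in the same group) and were summed. Levels are CPM, the read count scaled to a fixed library total with edgeR's TMM factors. A gene was called, or termed a DEG, when its adjusted p from edgeR's two-sided quasi-likelihood test was under 0.05 over all genes tested. The labels do not say that mice of a group came from separate cages or litters, so p-values measure the spread between these 3 mice. *Cldn2* stood at 119, 137 and 132 CPM in WT CAC and at 208, 218 and 251 CPM in *Cldn2*TG CAC mice (log2 fold change 0.78, SE 0.12, edgeR adjusted p = 0.0103), and at 191, 259 and 245 CPM in naive WT mice, so the transgenic group stood apart from the treated WT group but not from the naive group. Of 10 colon epithelium markers, including *Epcam*, *Vil1* and *Cdx2*, all were detected in every mouse, with a summed level of 13620 to 20630 CPM. The female transcript *Xist* stood at 214 CPM in naive WT mouse 1 and did not exceed 0.203 CPM elsewhere, while 4 Y-linked genes summed to 0.498 CPM in that mouse and 146 CPM or more in the remaining 8, so sex differed within the naive group.

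Each of the 44 collagen genes had a read in at least 1 mouse, and 32 had reads in every mouse. After the filter on low counts, 32 members were tested in WT CAC against naive WT and 30 in each *Cldn2*TG comparison. The filter depends on how many mice express a gene, so the members tested are not the whole family. The 12 others never passed it, with at most 1.21 CPM in any mouse: *Col2a1*, *Col4a3*, *Col4a4*, *Col6a6*, *Col9a1*, *Col10a1*, *Col11a1*, *Col13a1*, *Col19a1*, *Col22a1*, *Col25a1* and *Col26a1*. Collagen RNA was a small part of the colon libraries, at 0.0244% to 0.152% of the reads.

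The summed collagen level was 674, 525 and 707 CPM in naive WT, 647, 1501 and 832 CPM in WT CAC and 372, 254 and 334 CPM in *Cldn2*TG CAC mice. Every *Cldn2*TG CAC mouse lay below all 6 other mice, whereas WT CAC mouse 4 lay within the naive range and mouse 5 was the highest of all. Among the 32 members tested in any comparison, 21 were highest in WT CAC mouse 5, and the lowest value belonged to a *Cldn2*TG CAC mouse for 22. In bulk RNA, fewer collagen-producing cells and less collagen RNA per cell cannot be told apart, here and in all that follows.

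In WT CAC against naive WT colon, 6 collagen genes were called higher and none lower among 32 tested by edgeR. The 6 were *Col9a3*, *Col24a1*, *Col6a4*, *Col18a1*, *Col9a2* and *Col27a1*, none of them a chain of type I, III, IV or V. The background was 8.04% of 15437 genes called higher and 6.92% called lower. At an unadjusted p under 0.05, 11 members were higher and 2 lower, and DESeq2 called 9 higher and 1 lower. The median log2 fold change of the members tested was 0.50, beside 0.02 for all genes, and 26 of 32 were above 0. *Col24a1* and *Col9a3* passed the filter on low counts through the WT CAC mice alone, so they could be tested only by being high there, and the remaining 30 members had 4 higher calls, none lower, and a median of 0.47. Groups did not overlap for 8 members that were higher and 3 that were lower (background 17.7% and 20.3%). The count of calls was 0 without naive mouse 2 or 3, 1 without naive mouse 1, 2 without WT CAC mouse 5, 3 without mouse 6 and 16 without mouse 4.

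The comparison of treated genotypes asks how the transcriptome of colon with epithelial claudin-2 overexpression differs under the same treatment. In *Cldn2*TG CAC against WT CAC colon, 16 of 30 collagen genes fell and none rose. They included chains of types I, III, IV, V, VI, IX, XII, XV, XVIII and XXVII. The background was 7.35% of 14888 genes called lower and 2.19% called higher. No member was higher at an unadjusted p under 0.05 in edgeR, 20 were lower, and DESeq2 called none higher and 19 lower. The median log2 fold change was -1.65, beside 0.01 for all genes, and 27 of 30 members were below 0. Without *Col9a3*, which passed the filter through the WT CAC mice alone, 15 of 29 were called lower and the median was -1.58. Groups did not overlap for 19 members, all lower (background 14.3% lower and 14.2% higher). All 16 calls were lost without *Cldn2*TG CAC mouse 8 and without mouse 9, and 9 were made without mouse 7, while the median stayed between -1.86 and -1.23. Over all genes, too, calls dropped from 1421 to 58 without mouse 8, 108 without mouse 9 and 460 without mouse 7.

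Against naive WT colon, 12 of 30 members fell in *Cldn2*TG CAC and none rose. The background was 6.07% of 15013 genes called lower and 3.92% called higher. At an unadjusted p under 0.05 in edgeR none was higher and 20 were lower, and DESeq2 called 15 lower and none higher. The median log2 fold change was -0.91, beside 0.00 for all genes, and 17 members had groups that did not overlap, all lower (background 16.3% lower and 14.9% higher). The count of lower calls was 7 without naive mouse 3, and 8 to 15 without each of the others. A set of 9 members, *Col1a2*, *Col4a1*, *Col4a2*, *Col5a1*, *Col5a2*, *Col5a3*, *Col6a3*, *Col12a1* and *Col15a1*, were called lower against both WT groups, comparisons that share the transgenic mice. Fitting all 9 mice together left 5 calls in this comparison.

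**Figure D1:**
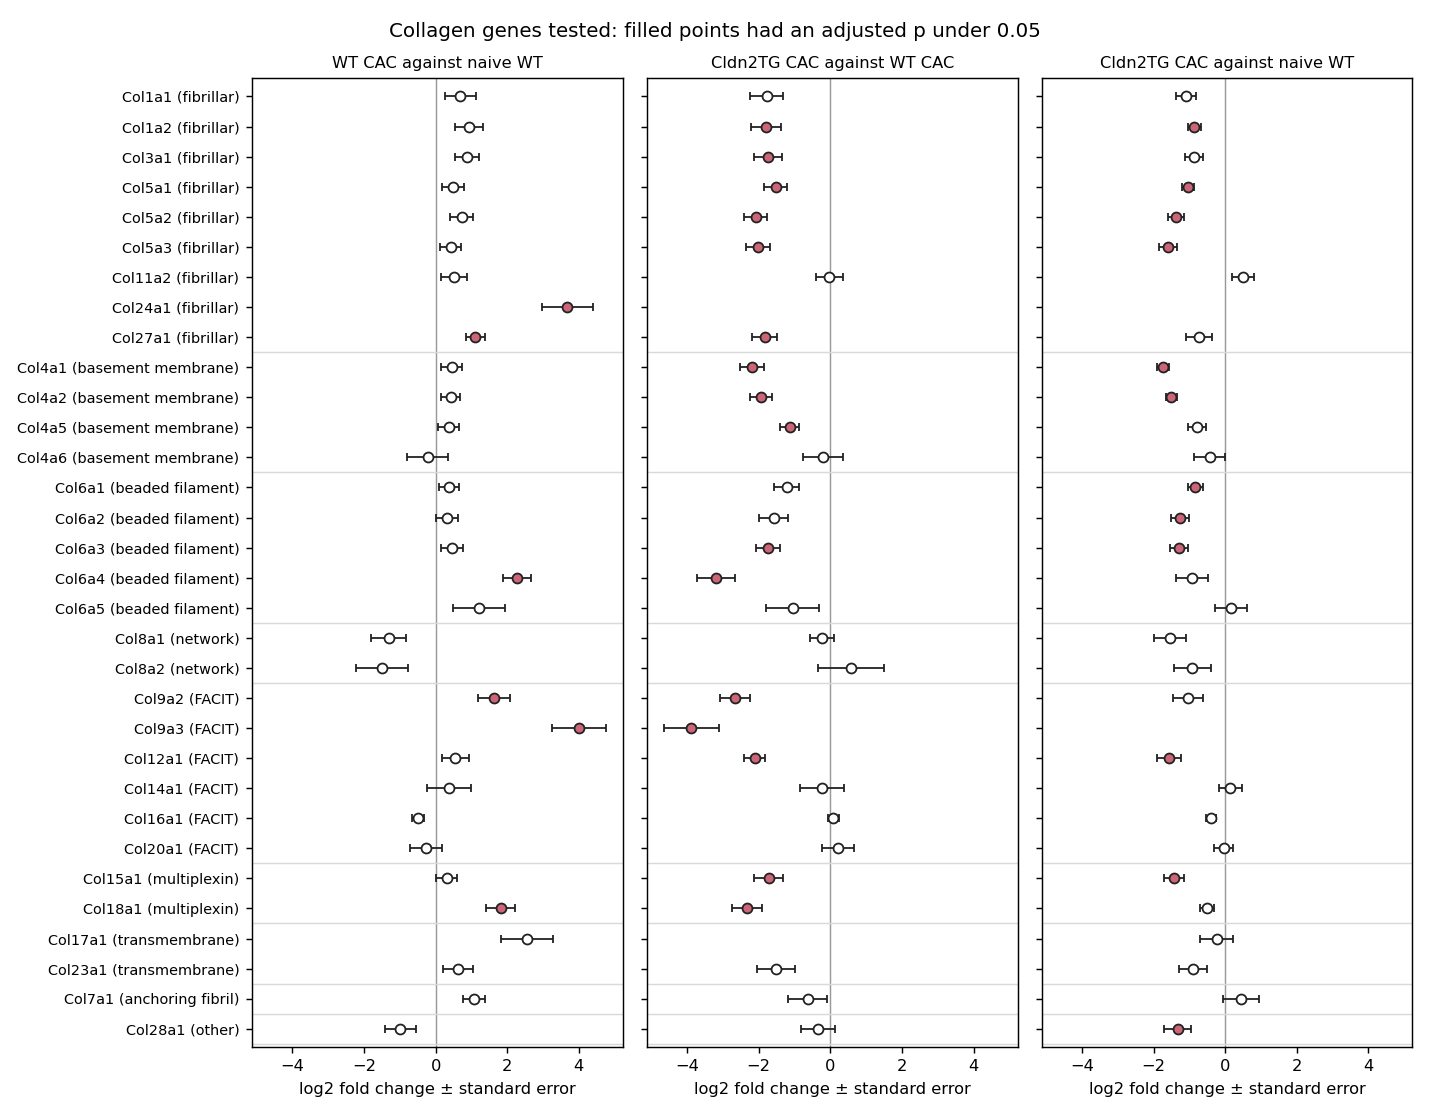
Log2 fold change with standard error (x axis) of every collagen gene tested, by class, in the 3 comparisons. Filled points mark an adjusted p under 0.05 in edgeR. All filled points lie above 0 in WT CAC against naive WT (6 genes) and below 0 in both *Cldn2*TG comparisons (16 and 12 genes).

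Fibrillar chains made up 48.8% to 62.4% of collagen reads in each mouse, and *Col3a1* alone 24.7% to 34.4%. *Col3a1*, the single chain of type III collagen (chromosome 1, 45311538 to 45349706 on GRCm38), was the most abundant per length of any collagen gene in all groups. Its RefSeq promoter holds a TATAAA motif, a sequence found on either strand in the 250 bases before the start of 5 of the 35 collagen genes with a RefSeq window and in 12.4% of all 32851 windows. The 60 bases around it, at chr1:45311398-45311457 on the plus strand (RefSeq, GRCm38.p6) and 140 to 81 bases before the start, are shown with the motif in capitals because *Col3a1* had the most collagen reads.
Col3a1 upstream: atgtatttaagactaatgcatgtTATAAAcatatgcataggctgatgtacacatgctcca

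In naive WT mice *Col3a1* stood at 187.4, 140.5 and 205.8 CPM. WT CAC mice had 222.4, 506.6 and 231.4 CPM, and *Cldn2*TG CAC mice 120.4, 62.8 and 107.7 CPM. No 2 groups overlapped, and mouse 5 was far above the rest. *Col3a1* fell 3.35-fold between the treated genotypes (log2 fold change -1.74, SE 0.39, edgeR adjusted p = 0.0353). Its main fit did not call WT CAC against naive WT (0.87, SE 0.33, adjusted p = 0.118) nor *Cldn2*TG CAC against naive WT (-0.87, SE 0.26, adjusted p = 0.0891), though DESeq2 called both. The call between the treated genotypes was made without WT CAC mouse 4 and lost without any other mouse (edgeR adjusted p = 0.027 to 0.116) and without the filter on low counts (0.154).

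Type I collagen, the main fiber protein, is built from *Col1a1* and *Col1a2* chains. *Col1a2* (chromosome 6) stood at 65.9, 54.4 and 76.5 CPM in naive WT, 69.1, 206.3 and 93.2 CPM in WT CAC and 37.5, 27.1 and 43.7 CPM in *Cldn2*TG CAC mice. The transgenic mice were again the lowest, and mouse 4 fell among the naive mice. *Col1a2* fell against both WT CAC (log2 fold change -1.79, SE 0.41, edgeR adjusted p = 0.0406) and naive WT (-0.86, SE 0.18, adjusted p = 0.0215). The first call was lost without mouse 6, 7, 8 or 9, without the filter and from lane 2 alone, and the second without mouse 1, 3 or 7 and with all 9 mice fitted. *Col1a1* (chromosome 11) had 60.4, 39.0 and 64.9 CPM in naive WT, 39.3, 139.4 and 82.2 CPM in WT CAC and 25.0, 17.8 and 34.5 CPM in *Cldn2*TG CAC mice. The transgenic group did not overlap either WT group, yet edgeR's main fit called no comparison (log2 fold changes -1.78, SE 0.47, adjusted p = 0.0632 against WT CAC and -1.09, SE 0.28, adjusted p = 0.0583 against naive WT). Among 9 alternative settings it was called in 3 against WT CAC (DESeq2, library size scaling and all 9 mice) and in 4 against naive WT (DESeq2, library size scaling, no filter and lane 2 alone).

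Type V collagen sits inside type I fibrils and limits their diameter. *Col5a2* stood at 20.1, 12.2 and 15.7 CPM in naive WT, 16.7, 38.3 and 23.3 CPM in WT CAC and 6.61, 4.81 and 7.31 CPM in *Cldn2*TG CAC mice. *Col5a1* had 16.8, 12.9 and 16.1, then 13.7, 32.6 and 17.0, then 8.13, 7.75 and 6.35 CPM in the same order. *Col5a3* had 3.48, 3.56 and 3.69, then 3.05, 6.01 and 5.09, then 1.31, 1.06 and 1.18 CPM. All 3 chains were lower in each transgenic mouse than in any WT mouse, and all 3 fell against both groups. Against WT CAC the log2 fold changes were -2.09 for *Col5a2* (SE 0.32, edgeR adjusted p = 0.00973), -1.53 for *Col5a1* (SE 0.32, adjusted p = 0.0226) and -2.01 for *Col5a3* (SE 0.34, adjusted p = 0.0118). Against naive WT they were -1.36 (SE 0.22, adjusted p = 0.00637), -1.04 (SE 0.17, adjusted p = 0.00574) and -1.59 (SE 0.25, adjusted p = 0.00501), and these 3 calls held without any single mouse. Those against WT CAC were lost without mouse 8 or 9, and for *Col5a1* without mouse 7 as well. *Col5a1* was not called against naive WT when all 9 mice were fitted (adjusted p = 0.0784), nor *Col5a3* from lane 2 alone (adjusted p = 0.058).

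*Col24a1* and *Col27a1* encode the fibrillar chains best known from developing cartilage and bone, and were the fibrillar chains called higher in WT CAC. *Col27a1* stood at 1.89, 1.41 and 2.30 CPM in naive WT, 3.91, 4.29 and 3.68 CPM in WT CAC and 1.72, 0.912 and 0.739 CPM in *Cldn2*TG CAC mice. WT CAC mice were close together and above all others. It rose 2.15-fold against naive WT (log2 fold change 1.11, SE 0.27, edgeR adjusted p = 0.0337) and fell against WT CAC in the transgenic mice (-1.84, SE 0.36, adjusted p = 0.0179). The rise was lost without any mouse but mouse 4 and from lane 1 alone, and the fall without mouse 5, 8 or 9. *Col24a1* had 0.0995, 0.1004 and 0 CPM in naive WT, 0.762, 1.28 and 0.536 CPM in WT CAC and 0.207, 0 and 0.148 CPM in *Cldn2*TG CAC mice, with every naive and transgenic mouse at 3 counts or fewer. The mean WT CAC level was 5.997-fold the level of 3 counts in each naive mouse and 4.45-fold that of 3 counts in each transgenic mouse. Counting error could place the low levels above 3 counts, so these folds set no lower limit. The second difference was not tested. No p is given for the first difference, since the gene entered the test through WT CAC alone.

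The remaining fibrillar chain tested, *Col11a2*, ranged from 0.896 to 2.23 CPM and was called in no comparison (log2 fold change -0.03, SE 0.37, adjusted p = 0.98 against WT CAC). Of the fibrillar class, 2 of 9 members were called higher in WT CAC (1 of them *Col24a1*), and 6 of 8 fell against WT CAC and 4 of 8 against naive WT in the transgenic mice. The shares over all genes were 8.04% called higher in the first comparison, and 7.35% and 6.07% called lower in the other 2. Class medians were 0.73 (0.71 without *Col24a1*), -1.78 and -0.95 on the log2 scale.

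**Figure D2:**
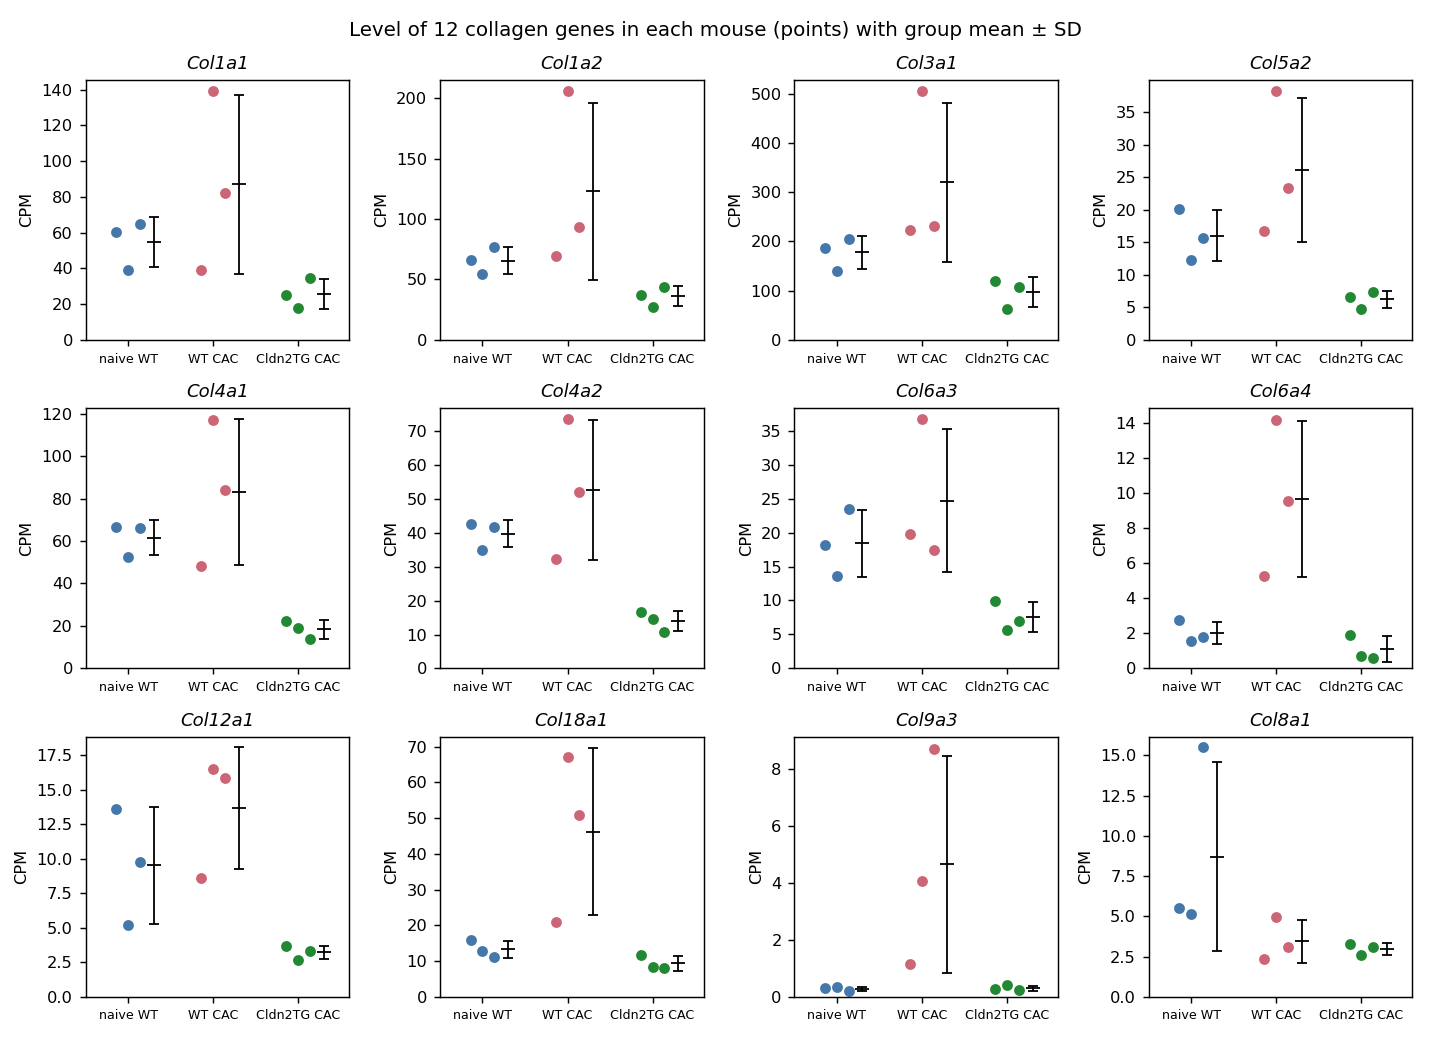
Level (CPM, linear y axis from 0) of 12 collagen genes in each of the 9 mice, by group, with the mean and SD beside the points. The *Cldn2*TG CAC points are the lowest for *Col1a1*, *Col1a2*, *Col3a1*, *Col5a2*, *Col4a1*, *Col4a2*, *Col6a3* and *Col12a1*, while *Col6a4*, *Col9a3* and *Col18a1* stand out in WT CAC and *Col8a1* in naive WT.

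*Col4a1* and *Col4a2*, the basement membrane chains of every tissue, lie head to head on chromosome 8. *Col4a1* covers 11198423 to 11312826 on the minus strand and *Col4a2* 11312805 to 11449287 on the plus strand, so their first exons, in the 5′ UTR of both, share 22 bases. Those bases are shown because both genes fell in the transgenic mice, and without strand a read within them cannot be assigned to either gene. The window chr8:11312801-11312830 (RefSeq, GRCm38.p6) is written on the plus strand, with the shared bases in capitals.
Col4a1 and Col4a2 shared start: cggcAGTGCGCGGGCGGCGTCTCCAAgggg

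The shared bases are 0.295% of the *Col4a1* and 0.332% of the *Col4a2* exon length. A CCAAT motif (either strand) lay in the 250 bases before both starts, as in 13 of the 35 collagen genes with a window and 33.8% of all windows. *Col4a1* stood at 66.5, 52.3 and 66.0 CPM in naive WT, 48.1, 117 and 84.1 CPM in WT CAC and 22.5, 19.1 and 13.7 CPM in *Cldn2*TG CAC mice. *Col4a2* had 42.5, 35.1 and 41.8, then 32.4, 73.7 and 52.0, then 16.7, 14.4 and 10.8 CPM. For both chains the transgenic mice were below every WT mouse by a wide margin, and WT CAC mice lay on both sides of the naive mice. *Col4a1* fell 4.56-fold against WT CAC (log2 fold change -2.19, SE 0.33, edgeR adjusted p = 0.0118) and 3.32-fold against naive WT (-1.73, SE 0.18, adjusted p = 0.00118). *Col4a2* fell 3.82-fold (-1.93, SE 0.30, adjusted p = 0.0116) and 2.83-fold (-1.50, SE 0.16, adjusted p = 0.000998). The calls against naive WT held without any single mouse and under every alternative setting, and those against WT CAC were lost without mouse 8 or 9 (adjusted p up to 0.0671 for both).

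*Col4a5*, an X-linked chain of the basement membrane under epithelium and around smooth muscle, stood at 5.47, 3.82 and 6.86 CPM in naive WT, 7.16, 8.31 and 4.89 CPM in WT CAC and 3.44, 3.09 and 2.88 CPM in *Cldn2*TG CAC mice. The transgenic mice were lowest, but the margin to naive mouse 2 was small. *Col4a5* fell against WT CAC (log2 fold change -1.14, SE 0.27, edgeR adjusted p = 0.0322, lost without mouse 5, 7, 8 or 9 and from lane 1 alone) and not against naive WT (-0.77, SE 0.25, adjusted p = 0.0771). Its neighbor *Col4a6*, which starts 1308 bases away on the other strand, ranged from 0.469 to 2.78 CPM with overlapping groups and was called nowhere. *Col4a3* and *Col4a4*, the chains of the glomerular basement membrane, lie 71 bases apart head to head and had at most 0.507 CPM in any mouse. Of 4 basement membrane chains tested, edgeR and DESeq2 called none in WT CAC against naive WT, and none had an unadjusted p under 0.05. The class median was 0.39 there, and -1.53 and -1.14 in the transgenic mice against WT CAC and naive WT.

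The major beaded filament chains, *Col6a1*, *Col6a2* and *Col6a3*, assemble into type VI microfibrils. *Col6a3* stood at 18.2, 13.6 and 23.4 CPM in naive WT, 19.8, 36.8 and 17.5 CPM in WT CAC and 9.99, 5.62 and 7.02 CPM in *Cldn2*TG CAC mice. *Col6a1* had 38.0, 35.5 and 44.1, then 41.6, 76.0 and 33.5, then 30.4, 16.1 and 19.4 CPM. *Col6a2* had 38.4, 31.2 and 39.9, then 31.8, 70.9 and 32.5, then 20.9, 9.78 and 15.3 CPM. Transgenic mice were below all WT mice for each chain, and 2 of the 3 WT CAC mice were near the naive mice. Against naive WT all 3 fell, with log2 fold changes of -0.83 for *Col6a1* (SE 0.22, edgeR adjusted p = 0.0464), -1.25 for *Col6a2* (SE 0.25, adjusted p = 0.0188) and -1.29 for *Col6a3* (SE 0.25, adjusted p = 0.0144). Against WT CAC, *Col6a3* fell by 1.74 on the log2 scale (SE 0.33, adjusted p = 0.0181), whereas *Col6a2* (-1.58, SE 0.40, adjusted p = 0.0511) and *Col6a1* (-1.22, SE 0.35, adjusted p = 0.0783) did not pass. Among 9 alternative settings *Col6a2* was called there in 5 and *Col6a1* in 2. With all 9 mice fitted, the 3 calls against naive WT were lost (adjusted p = 0.0615 to 0.176). The *Col6a3* calls were lost without mouse 8 or 9, that of *Col6a2* without mouse 1, 3 or 9, and that of *Col6a1* without any mouse but mouse 7 and from lane 1 alone.

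*Col6a4* encodes an alternative long chain related to *Col6a3* and lies beside *Col6a5* and *Col6a6* on chromosome 9. It stood at 2.74, 1.56 and 1.78 CPM in naive WT, 5.28, 14.2 and 9.57 CPM in WT CAC and 1.93, 0.710 and 0.591 CPM in *Cldn2*TG CAC mice. WT CAC mice were above all others, unlike for the major type VI chains. *Col6a4* rose 4.85-fold in WT CAC (log2 fold change 2.28, SE 0.40, edgeR adjusted p = 0.0157) and was 9.14-fold lower in *Cldn2*TG CAC than in WT CAC (-3.19, SE 0.53, adjusted p = 0.0121). The first call was lost without naive mouse 2 or 3 and the second without mouse 8 or 9. *Col6a5* ranged from 0.896 to 7.83 CPM, with the highest value in mouse 5, and was not called. Class medians of the 5 type VI chains tested were 0.45, -1.58 and -0.92 on the log2 scale, in the order used for the fibrillar class.

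FACIT collagens divided into members that fell in the transgenic mice and members that did not. *Col12a1*, which coats type I fibrils under mechanical load, stood at 13.6, 5.17 and 9.77 CPM in naive WT, 8.59, 16.5 and 15.9 CPM in WT CAC and 3.65, 2.69 and 3.32 CPM in *Cldn2*TG CAC mice. Its lowest value outside the transgenic group was in naive mouse 2. It fell against WT CAC (log2 fold change -2.11, SE 0.29, edgeR adjusted p = 0.00804, the smallest among the members in that comparison) and naive WT (-1.57, SE 0.33, adjusted p = 0.0201). Without mouse 8 or 9 neither was called, nor was the second without mouse 3.

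*Col9a3* and *Col9a2* encode type IX chains, known from the surface of cartilage fibrils. *Col9a3* stood at 0.299, 0.351 and 0.217 CPM in naive WT, 1.17, 4.07 and 8.71 CPM in WT CAC and 0.276, 0.405 and 0.222 CPM in *Cldn2*TG CAC mice. *Col9a2* had 2.74, 1.004 and 2.48, then 4.27, 5.22 and 9.64, then 1.38, 0.710 and 0.960 CPM. Both were higher in every WT CAC mouse than in any other mouse, most so in mouse 6. *Col9a3* had a log2 fold change of 4.003 in WT CAC (SE 0.76) and of -3.89 in *Cldn2*TG CAC against WT CAC (SE 0.77), and no p is given, since it was under the filter level in every naive and transgenic mouse and entered both tests through WT CAC alone. *Col9a2* rose by 1.64 (SE 0.45, adjusted p = 0.0478) and fell by 2.67 on the log2 scale (SE 0.42, adjusted p = 0.00973). The rise of *Col9a2* was lost without any mouse but mouse 4, under library size scaling and from lane 2 alone, and its fall without mouse 8 or 9. The remaining type IX chain, *Col9a1*, had at most 0.402 CPM in any mouse. The cartilage proteoglycan *Acan* and matrilins *Matn1* and *Matn3* were at 0 to 0.067 CPM in every mouse. *Comp*, another cartilage marker on the list, was detected in every mouse and not tested, at 0.249 to 0.347 CPM in naive WT, 0.457, 0.486 and 0.804 CPM in WT CAC and 0.344 to 0.608 CPM in *Cldn2*TG CAC mice, with its highest value in mouse 6, as for both type IX chains. *Sox9*, which colon crypts also express, stood at 72.9 to 126.6 CPM. The part of cartilage in the type IX levels was not tested. *Col9a3* shares 234 exon bases (6.07% of its length) with *Tcfl5* on the other strand, which had 3 counts in all.

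*Col16a1*, *Col14a1* and *Col20a1* did not follow the other FACIT chains. *Col16a1* stood at 40.8, 37.5 and 29.6 CPM in naive WT, 29.2, 22.6 and 24.0 CPM in WT CAC and 29.5, 28.1 and 23.6 CPM in *Cldn2*TG CAC mice. Both treated groups lay below the naive mice, the nearest by less than 1 CPM, and overlapped each other. Its log2 fold change in *Cldn2*TG CAC against WT CAC was 0.08 (SE 0.16, 95% interval -0.23 to 0.38, edgeR adjusted p = 0.843) and -0.020 with library size scaling. Against naive WT it was -0.48 in WT CAC (SE 0.16, adjusted p = 0.0824) and -0.40 in *Cldn2*TG CAC (SE 0.14, adjusted p = 0.103). *Col14a1* ranged from 1.73 to 9.20 CPM and *Col20a1* from 1.24 to 3.76 CPM, with groups that overlapped and no call, and *Col20a1* shares 79 exon bases with a gene on its own strand, so its count is uncertain. *Col22a1*, never tested, had 0 to 0.249 CPM in naive WT, 0.254 to 1.21 CPM in WT CAC and 0 to 0.0689 CPM in *Cldn2*TG CAC mice. Of 6 FACIT chains tested, 2 were called higher in WT CAC and 3 lower in *Cldn2*TG CAC against WT CAC (1 of them *Col9a3* in both, which entered through WT CAC alone). The shares over all genes were 8.04% called higher and 7.35% called lower in these comparisons. Without *Col9a3* the class medians were 0.38 in WT CAC against naive WT and -0.23 between the treated genotypes (0.46 and -1.17 with it), and the median against naive WT, where it was not tested, was -0.40.

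The multiplexins *Col15a1* and *Col18a1* carry proteoglycan side chains in basement membrane zones, and *Col18a1* holds the endostatin sequence. *Col18a1* stood at 15.9, 12.7 and 11.25 CPM in naive WT, 20.8, 67.1 and 50.8 CPM in WT CAC and 11.7, 8.26 and 8.13 CPM in *Cldn2*TG CAC mice. WT CAC mice were above all others, with mouse 4 only slightly so. *Col18a1* rose 3.54-fold in WT CAC (log2 fold change 1.82, SE 0.40, edgeR adjusted p = 0.0295) and fell 5.01-fold in *Cldn2*TG CAC against WT CAC (-2.32, SE 0.42, adjusted p = 0.019). Among fits that left out a mouse, the rise was called only without mouse 4 and the fall only without mouse 4 or 5, and neither was called without the filter on low counts (adjusted p = 0.105 and 0.0862).

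*Col15a1* had 7.86, 6.53 and 7.56 CPM in naive WT, 5.33, 12.8 and 8.504 CPM in WT CAC and 2.34, 1.77 and 4.14 CPM in *Cldn2*TG CAC mice. It did not stand apart in WT CAC (log2 fold change 0.31, SE 0.30, edgeR adjusted p = 0.521). In the transgenic mice it fell by 1.73 on the log2 scale against WT CAC (SE 0.41, adjusted p = 0.034) and by 1.43 against naive WT (SE 0.29, adjusted p = 0.0133). Without any mouse but mouse 4 the first call was lost, while the second held without each mouse and was lost with all 9 mice fitted (edgeR adjusted p = 0.0601).

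Network collagens of type VIII, made by endothelial and smooth muscle cells, were highest in naive mice. *Col8a1* stood at 5.52, 5.12 and 15.5 CPM in naive WT, 2.34, 4.95 and 3.08 CPM in WT CAC and 3.31, 2.58 and 3.10 CPM in *Cldn2*TG CAC mice. Naive mouse 3 was far above the rest, and the treated groups overlapped. No comparison passed in edgeR's main fit (log2 fold changes -1.30, SE 0.49, edgeR adjusted p = 0.11 in WT CAC and -1.54, SE 0.44, adjusted p = 0.0673 in *Cldn2*TG CAC against naive WT). DESeq2 called *Col8a1* in both of these, and the fit without the filter on low counts called it in the second. *Col8a2* had 1.54, 1.81 and 1.09, then 0.508, 0.929 and 0, then 0.138, 1.17 and 0.960 CPM, with only WT CAC mice wholly below the naive mice (-1.50, SE 0.73, adjusted p = 0.195). *Col10a1*, the chain of hypertrophic cartilage, had at most 0.134 CPM.

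The anchoring fibril chain *Col7a1* and the hemidesmosome chain *Col17a1* are products of stratified epithelium. *Col17a1* stood at 0.547, 0.552 and 0.391 CPM in naive WT, 0.508, 4.29 and 3.95 CPM in WT CAC and 0.551, 0.456 and 0.222 CPM in *Cldn2*TG CAC mice. Only mice 5 and 6 were raised, and mouse 4 was at the naive level (log2 fold change 2.56, SE 0.73, edgeR adjusted p = 0.0521). *Col7a1* had 1.24, 0.954 and 0.956, then 2.49, 2.39 and 1.61, then 0.344, 2.23 and 1.62 CPM (1.07, SE 0.31, adjusted p = 0.0536 in WT CAC against naive WT). Its difference was called in 1 of 9 alternative settings. WT CAC mice were above the naive mice and overlapped the transgenic mice.

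Beside *Col17a1* and *Col7a1*, the summed level of 8 markers of stratified squamous epithelium was 6.67 to 7.63 CPM in naive WT, 24.4 to 58.7 CPM in WT CAC and 9.60 to 11.4 CPM in *Cldn2*TG CAC mice. Of the 4 markers tested, 2 rose in WT CAC, *Krt14* (log2 fold change 3.90) and *Krt13* (4.75), and both fell in *Cldn2*TG CAC against WT CAC. The background of all genes was 8.04% called higher in the first comparison and 7.35% called lower in the second. The defining basal markers *Krt5* and *Trp63* were at 0 to 0.152 CPM in every mouse. The part of squamous epithelium in the *Col17a1* and *Col7a1* levels was not tested.

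*Col23a1*, a transmembrane collagen, stood at 1.94, 1.61 and 2.04 CPM in naive WT, 1.32, 3.01 and 4.22 CPM in WT CAC and 0.482, 0.912 and 1.62 CPM in *Cldn2*TG CAC mice. Values overlapped between all groups and no comparison passed (log2 fold change -1.52, SE 0.54, edgeR adjusted p = 0.121 against WT CAC). *Col28a1*, a chain linked to peripheral nerve and glia, had 2.49, 1.41 and 2.61, then 1.68, 0.663 and 0.871, then 0.551, 0.912 and 1.11 CPM. The transgenic mice were below all naive mice, and WT CAC mice overlapped both. *Col28a1* fell against naive WT (-1.33, SE 0.36, adjusted p = 0.0425), a call that only the fit without mouse 2 kept and that was lost from either lane alone and with all 9 mice. *Col26a1*, the other member of no class, had at most 0.0995 CPM.

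The ratio of chains that share a trimer or fibril was compared within mice, per kilobase of exon. The 6 pairs in 3 comparisons gave 18 two-sided exact permutation tests, for which 3 mice against 3 allow no p under 0.1, so no difference could pass. The smallest adjusted p obtained over the 18 tests (Benjamini-Hochberg) was 0.3. The log2 ratio of *Col4a1* to *Col4a2* was 0.475, 0.405 and 0.488 in naive WT, 0.400, 0.494 and 0.523 in WT CAC and 0.258, 0.234 and 0.172 in *Cldn2*TG CAC mice. It was lower in each transgenic mouse than in any WT mouse, a mean difference of -0.25 from WT CAC and -0.24 from naive WT (exact permutation p = 0.1 each). The ratio of *Col6a3* to *Col6a1* was likewise lowest in the transgenic mice, at -3.06, -2.96 and -2.92 beside -2.83 to -2.36 in the WT mice (exact permutation p = 0.1 each). In the other direction, *Col6a1* to *Col6a2* was higher in the transgenic mice than in all naive mice (mean log2 ratio 1.46 against 1.03), and *Col5a1* to *Col5a2* higher than in all WT CAC mice (0.44 against -0.15). The ratios of *Col1a1* to *Col1a2* and of *Col3a1* to *Col1a1* overlapped between all groups.

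**Figure D3:**
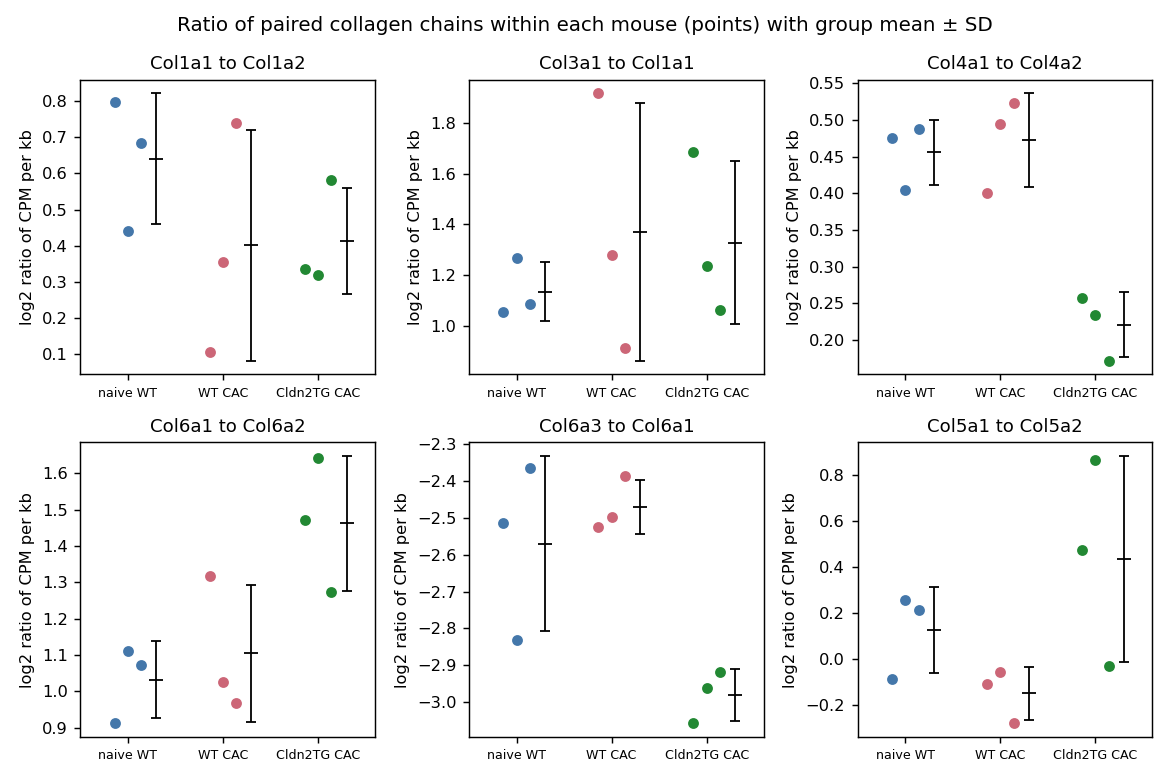
Log2 ratio of CPM per kilobase (y axis, not starting at 0) of 6 pairs of collagen chains in each mouse, with group mean and SD. *Cldn2*TG CAC mice do not overlap the WT mice for *Col4a1* to *Col4a2* and *Col6a3* to *Col6a1*, and overlap both WT groups for *Col1a1* to *Col1a2* and *Col3a1* to *Col1a1*.

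The share of collagen reads that a class took differed between groups for some classes. Network chains were 1.06% to 2.35% of collagen reads in naive WT, 0.386% to 0.440% in WT CAC and 0.945% to 1.52% in *Cldn2*TG CAC mice, so that each WT CAC mouse was below all others. Basement membrane chains were 16.7% to 17.7% of collagen reads in naive WT, 13.4% to 17.1% in WT CAC and 8.51% to 15.4% in *Cldn2*TG CAC mice. Multiplexins were 2.66% to 3.66%, 4.04% to 7.13% and 3.67% to 3.95%, so that each WT CAC mouse exceeded all others. FACIT chains were 6.92% to 9.67%, 3.99% to 7.65% and 10.6% to 15.4%, with each transgenic mouse above all others. These are descriptions, with no test.

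Genes that act on collagen were counted in 6 lists, to be read beside the background of all genes called, which was 8.04% higher and 6.92% lower in WT CAC against naive WT, 2.19% and 7.35% between the treated genotypes, and 3.92% and 6.07% in *Cldn2*TG CAC against naive WT. Of 16 tested genes of folding and modification in the cell, edgeR and DESeq2 called none in WT CAC against naive WT, where 1 had an unadjusted p under 0.05. In the transgenic mice 2 fell against WT CAC and 5 against naive WT. *Serpinh1*, the collagen chaperone HSP47, stood at 42.2, 42.6 and 50.1 CPM in naive WT, 37.3, 42.8 and 34.8 CPM in WT CAC and 19.6, 12.5 and 13.96 CPM in *Cldn2*TG CAC mice. WT groups overlapped, and the transgenic mice were far below (log2 fold change -1.34, SE 0.19, edgeR adjusted p = 0.0082 against WT CAC and -1.55, SE 0.17, adjusted p = 0.00108 against naive WT). The prolyl hydroxylase *P4ha2* was called lower in both, but against naive WT its call was lost without any 1 of the 6 mice, with all 9 mice fitted and from lane 1 alone. *Plod1*, *Plod2* and *P3h2* fell against naive WT, and their calls were lost without naive mouse 3 and without mouse 8 or 9. The list medians were -0.07, -0.28 and -0.29 on the log2 scale. *P4hb* and *Ppib*, which also serve other secreted proteins, were not called.

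Of 4 tested genes of propeptide processing, *Bmp1*, the C-proteinase, rose 2.24-fold in WT CAC (edgeR adjusted p = 0.0442) and fell 2.92-fold in *Cldn2*TG CAC against WT CAC (adjusted p = 0.0234). Its enhancer *Pcolce* fell against both groups. Of the cross-linking enzymes, edgeR and DESeq2 called none of 6 in WT CAC against naive WT (2 at an unadjusted p under 0.05), 4 of 5 fell in *Cldn2*TG CAC against WT CAC (*Lox*, *Loxl2*, *Loxl3* and *Tgm2*) and 3 of 5 against naive WT (*Loxl1*, *Loxl2* and *Tgm2*). *Tgm2*, a transglutaminase, had 30.1, 22.2 and 32.6 CPM in naive WT, 25.5, 134.0 and 95.2 CPM in WT CAC and 13.3, 16.8 and 18.1 CPM in *Cldn2*TG CAC mice, with mouse 4 again at the naive level. List medians were 0.79, -1.005 and -0.50 for processing and 0.64, -1.74 and -0.88 for cross-linking.

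Of 17 proteoglycans and matricellular proteins, 2 rose (*Podn* and *Fn1*) and 1 fell (*Prelp*) in WT CAC, while the transgenic mice had 8 lower and 1 higher (*Prelp*) than WT CAC and 10 lower than naive WT (medians 0.58, -1.20 and -0.85). *Sparc*, a collagen-binding chaperone-like protein, stood at 124.4, 102.0 and 124.3 CPM in naive WT, 85.0, 170.9 and 99.6 CPM in WT CAC and 37.3, 32.5 and 38.4 CPM in *Cldn2*TG CAC mice. The transgenic mice were tightly grouped and far below (log2 fold change -1.69, SE 0.12, edgeR adjusted p = 8.66e-05 against naive WT and -1.74, SE 0.25, adjusted p = 0.00881 against WT CAC). *Prelp*, a leucine-rich proteoglycan of basement membrane zones, went the other way between treated groups, at 42.2, 58.4 and 53.3, then 17.7, 17.5 and 16.9, then 28.2, 29.8 and 27.6 CPM (log2 fold change 0.69, SE 0.12, adjusted p = 0.0136 against WT CAC).

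Among basement membrane partners, the laminin chains *Lama3*, *Lama5* and *Lamb3* rose in WT CAC, where no type IV chain was called. In the transgenic mice *Lama4*, *Lama5* and *Lamb3* fell against WT CAC, as did *Lamc1* (log2 fold change -1.61, edgeR adjusted p = 0.0131), *Hspg2* (-0.53, adjusted p = 0.0278) and the type IV cross-linking peroxidasin *Pxdn* (-1.60, adjusted p = 0.0118), and 4 fell against naive WT (*Lama4*, *Lamc1*, *Hspg2* and *Pxdn*). *Lama1* was low outside WT CAC (0.201 to 0.498 CPM in naive WT, 1.07 to 4.02 CPM in WT CAC and 0 to 0.276 CPM in *Cldn2*TG CAC mice) and is given without a test. Of 10 collagen receptors, 1 was called higher in WT CAC, the leukocyte receptor *Lair1*, and 1 lower, the integrin *Itga1*, shares near the background, and *Itga1* and *Ddr2* fell in the transgenic mice against naive WT (medians 0.00, -0.61 and -0.33). Against WT CAC edgeR called no receptor, 5 had an unadjusted p under 0.05 and DESeq2 called 2. Of all genes called in these 6 lists between the treated genotypes, *Fn1* (log2 fold change -1.73, edgeR adjusted p = 0.00277) was the one whose call held without each mouse in turn, and the rest were lost without mouse 8 or mouse 9. Against naive WT the calls of *Serpinh1*, *Ogn*, *Prelp*, *Aspn*, *Fn1*, *Sparc*, *Lamc1*, *Hspg2* and *Itga1* held without each mouse, and in WT CAC against naive WT that of *Prelp* did.

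Markers of 3 cell types that make collagen had different medians in WT CAC against naive WT, at 0.95 on the log2 scale for fibroblast, 0.02 for endothelial and -0.82 for smooth muscle markers, all 10 of which had a log2 fold change below 0. The summed level of 9 fibroblast markers was 150 to 186 CPM in naive WT, 299 to 516 CPM in WT CAC and 124 to 142 CPM in *Cldn2*TG CAC mice, with 2 rising in WT CAC (*Thy1* and *Vim*) and 2 falling in each *Cldn2*TG comparison (*Thy1* and *Vim*, then *Pdgfrb* and *Vim*). Over all genes, the background was 8.04% called higher in WT CAC and 7.35% and 6.07% called lower in the transgenic mice against WT CAC and naive WT. The higher fibroblast sum in WT CAC came largely from *Vim* (46.85 to 60.02 CPM in naive WT and 131.2 to 182.6 CPM in WT CAC) and *Dcn* (47.3 to 58.97 and 82.09 to 212.7 CPM). Of the 9 markers, 8 had a log2 fold change above 0 there, and groups did not overlap for 4. *Pdgfrb* went the other way, at 12.59 to 17.22 CPM in naive WT and 7.924 to 15.74 CPM in WT CAC. Endothelial markers, 8 genes, summed to 42.7 to 51.5, 38.8 to 64.1 and 18.5 to 22.5 CPM, and 4 fell against WT CAC and 6 against naive WT. Smooth muscle markers, 10 genes, summed to 2286 to 4476, 1197 to 3235 and 1085 to 1671 CPM, with 5 of 10 lower against naive WT. In the other comparisons edgeR called none, 4 had an unadjusted p under 0.05 in WT CAC against naive WT, where DESeq2 called 4, and none did between the treated genotypes, where DESeq2 called none. The part of these cells in the collagen levels was not tested.

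Other marker lists served to describe the tissue sampled, with the background of all genes called at 8.04% higher and 6.92% lower in WT CAC against naive WT, 2.19% and 7.35% between the treated genotypes, and 3.92% and 6.07% in the transgenic mice against naive WT. Enteric neuron and glia markers summed to 32.5 to 53.1 CPM in naive WT, 27.3 to 42.2 CPM in WT CAC and 11.5 to 16.7 CPM in *Cldn2*TG CAC mice, and edgeR called all 8 lower in the transgenic mice against naive WT, where *Col28a1* fell. Of these, *S100b* and *Sox10* passed the filter on low counts through the naive mice alone. In WT CAC mice 5 and 6 most of that sum was *Ret*, at 31.1 and 29.1 CPM. Without *Ret* the other 7 summed to 42.7, 25.2 and 36.5 CPM in naive WT, 20.3, 8.36 and 13.1 CPM in WT CAC and 13.5, 9.02 and 8.94 CPM in *Cldn2*TG CAC mice, so both treated groups were below the naive mice. In WT CAC against naive WT, most of these markers had a log2 fold change below 0 (median -1.35), and *Uchl1* fell. Leukocyte markers summed to 43.9 to 93.5, 116 to 223 and 23.7 to 52.7 CPM, with 5 of 8 called higher in WT CAC (1 of them, *S100a8*, having passed the filter through WT CAC alone) and 5 of 7 lower in *Cldn2*TG CAC against WT CAC. Of the lymphatic endothelial and mesothelium lists, *Prox1* and *Msln* rose in WT CAC and fell in the transgenic mice against WT CAC, and edgeR called no other marker, while DESeq2 called 2 mesothelium markers in WT CAC against naive WT. Summed levels were 15.8 to 23.2, 26.1 to 83.1 and 11.23 to 20.02 CPM for the first and 6.04 to 11.9, 11.9 to 30.3 and 0.276 to 8.31 CPM for the second. The other 2 markers tested in each list had log2 fold changes below 0 in WT CAC against naive WT (list medians -0.23 and -1.04). The higher sums there thus came from *Prox1* and *Msln*. By edgeR, adipocyte markers (5.98 to 132.7 CPM summed, highest in naive mouse 2 and *Cldn2*TG CAC mouse 8) and skeletal muscle markers (5.39 to 17.3 CPM) were not called in any comparison, each list having 1 marker at an unadjusted p under 0.05 in 1 comparison, and DESeq2 called 1 adipocyte marker. Of the colon epithelium list, *Krt8* was called higher in *Cldn2*TG CAC against naive WT, and of the cartilage list *Sox9*.

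**Figure D4:**
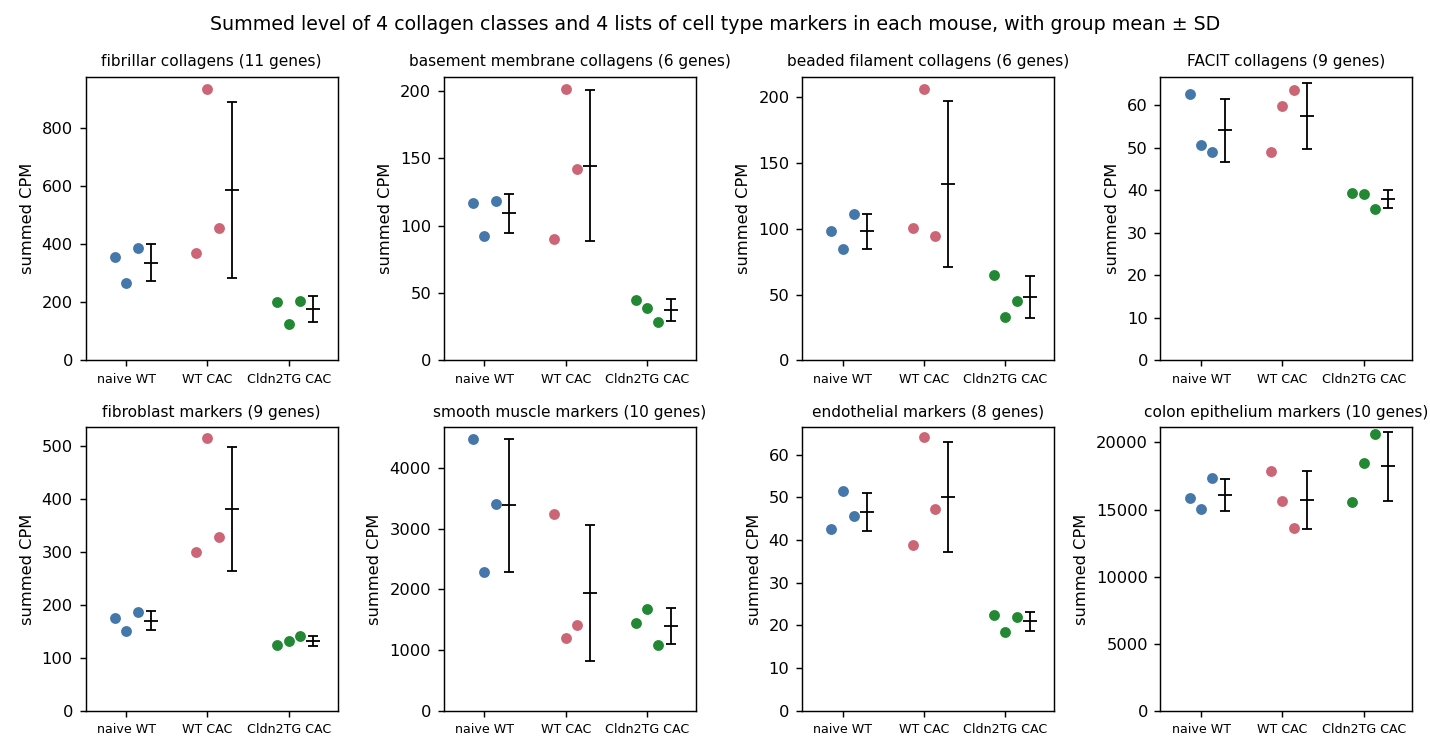
Summed CPM (linear y axis from 0) of 4 collagen classes (upper row) and 4 lists of cell type markers (lower row) in each mouse, with group mean and SD. *Cldn2*TG CAC mice are below all WT mice for the 4 collagen classes and for fibroblast and endothelial markers. For smooth muscle markers they are below the naive WT mice and overlap the WT CAC mice. For colon epithelium markers they overlap both WT groups.

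The genes whose log2 level was most like that of the summed fibrillar collagens across the 9 mice, out of 14472 compared, were *Serping1* (Pearson r = 0.98), *Bgn* (0.97), *Gpr153* (0.97), *Gja1* (0.97) and *Syt13* (0.97). Among other collagen genes, *Col6a3* (0.95) and *Col6a2* (0.95) ranked 13 and 17, while *Col16a1* (-0.24) and *Col20a1* (-0.62) had negative values. These are descriptions over 9 mice that share 3 groups.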

How the data were processed

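Colon RNA of 9 mice was sequenced on 2 lanes each. The authors deposited read counts per gene and lane, not normalized; the study's methods name TopHat2 and featureCounts, while the submitters' processing notes name HISAT2, featureCounts and Subread on GRCm38, and versions and strand setting are not given in the sources used here. Gene symbols and coordinates came from GENCODE M21 (47224 of 47729 genes matched, and 42 of the 44 collagen genes had the same coordinates), and promoter sequences from RefSeq on GRCm38.p6.

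Lanes were summed per mouse. Genes passing filterByExpr (minimum count 10, minimum total 15) were tested for each pair of groups on the 6 mice compared with edgeR 4.0.16 (TMM scaling, robust quasi-likelihood test, R 4.3.3), with Benjamini-Hochberg adjustment over all genes tested and a threshold of 0.05. SE is the log2 fold change divided by the square root of F. Chain ratios were compared with exact permutation tests in scipy 1.17.1. Depth was 14142711 to 22262546 reads per mouse, and a count of 0 allows up to 3 counts, or 0.135 to 0.212 CPM, for counting error only. In simulated counts edgeR recovered 171 of 193, 179 of 193 and 186 of 197 changed genes, with 12, 9 and 16 false calls, in WT CAC against naive WT, *Cldn2*TG CAC against WT CAC and *Cldn2*TG CAC against naive WT. Each changed gene was given a shift of the same size, up or down, larger than most collagen changes measured here. The recovery of smaller changes was not simulated.

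Alternatives were other scalings, DESeq2 1.42.0, other filters, all 9 mice in 1 fit, each lane alone and each mouse left out. Members called in any comparison, the 2 most abundant per length in each class and the 3 with the smallest p in each comparison were described in full. The collagen genes and the gene lists were chosen with earlier results of these data known. Some results of the basement membrane partner and enteric neuron lists are not reported here.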

Additional observations from a re-analysis of the deposited data

How the results depend on the processing

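No paired analysis was possible because mice carry the numbers 1 to 9 and no number is shared between groups. The count of collagen genes called in *Cldn2*TG CAC against naive WT was 12, and it became 20 without the filter on low counts and 5 with all 9 mice in 1 fit. In WT CAC against naive WT the count was 6, and DESeq2 gave 10. With each mouse left out in turn the counts ranged from 0 to 21 in *Cldn2*TG CAC against WT CAC, from 7 to 15 in *Cldn2*TG CAC against naive WT and from 0 to 16 in WT CAC against naive WT. The medians of the log2 fold changes ranged from -1.86 to -1.23, from -1.10 to -0.76 and from 0.19 to 0.74 in the same order, so their direction did not change. The cause of these shifts was not tested, beyond the smaller number of mice in each fit.

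Among the 28 members described in full, the sign reversed for changes that were not called in the main design. With library size scaling *Col16a1* moved to -0.020 in *Cldn2*TG CAC against WT CAC. As mice were left out, log2 fold changes ranged from -0.0082 to 0.21 for *Col16a1*, -0.62 to 0.17 for *Col28a1* and -0.45 to 0.11 for *Col8a1* in that comparison, from -0.48 to 0.019 for *Col17a1* and -0.11 to 0.88 for *Col7a1* in *Cldn2*TG CAC against naive WT, and from -0.049 to 0.57 for *Col15a1*, -0.025 to 0.61 for *Col6a1* and -0.15 to 0.52 for *Col6a2* in WT CAC against naive WT. Among the other members, 5 genes changed sign as mice were left out, in 11 comparisons that were not called: *Col6a5* (-1.52 to 0.15 in *Cldn2*TG CAC against WT CAC, from -1.05), *Col14a1* (-0.74 to 0.76 in WT CAC against naive WT and -0.62 to 0.88 in *Cldn2*TG CAC against WT CAC), *Col4a6*, *Col20a1* and *Col11a2*. The other values for the members described in full were 961 with the same direction and side of the threshold, 113 that lost it and 47 that gained it. Library size scaling moved the median of all genes by -0.11 in *Cldn2*TG CAC against naive WT and by less elsewhere.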

Other observations

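The summed level of fibrillar collagens divided by that of the 9 fibroblast markers, a ratio chosen after the values were seen, was 2.04, 1.77 and 2.08 in naive WT, 1.24, 1.81 and 1.40 in WT CAC and 1.64, 0.942 and 1.44 in *Cldn2*TG CAC mice. In this ratio treated mice of both genotypes overlapped, and each transgenic mouse lay below all naive mice. *Vim*, 1 of the 9 markers, stood at 131.2, 161.8 and 182.6 CPM in WT CAC and 27.2 to 33.0 CPM in *Cldn2*TG CAC mice. Its part in the ratio was not tested. Beaded filament chains divided by the same markers gave 0.56, 0.564 and 0.596 in naive WT mice. WT CAC mice had 0.336, 0.4 and 0.287, and transgenic mice 0.526, 0.252 and 0.321. The summed level of basement membrane chains divided by that of the 8 endothelial markers was 2.74, 1.80 and 2.58 in naive WT, 2.33, 3.15 and 3.01 in WT CAC and 1.29 to 2.11 in *Cldn2*TG CAC mice. Here the transgenic mice lay below all WT CAC mice and overlapped the naive mice.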
